A study of Mus musculus with 10 samples.

Results

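The genes described here belong to families known for products that add, remove or read chemical marks on histones or move nucleosomes. They were chosen by symbol alone (Kdm, Kmt, Hdac, Kat, Sirt, Chd, Brd or Prmt followed by a digit, or Smarca to Smarce), which gave 67 of the 12393 genes that the array names. By family name, 26 are counted as erasers (13 deacetylases of the Hdac and Sirt families and 13 Kdm demethylases). Another 18 are counted as writers (12 lysine writers, Kmt and Kat, and 6 arginine writers, Prmt). The other 23 are 18 remodellers (6 Chd and 12 Smarc) and 5 bromodomain readers (Brd). Some counted members, such as Sirt3, Hdac6 and Prmt3, act largely outside the nucleus, as described below. Family members outside the 67, such as Kdm6b, Chd3, Smarcc2, Sirt5 and Sirt6, were not analysed here.

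RNA of mouse small intestinal epithelium (strain C57BL/6) was hybridised to 10 Affymetrix 430A 2.0 arrays, 2 in each of 5 groups. ISC are stem cells marked by Lgr5, purified by flow cytometry for GFP from Lgr5-eGFP-Cre animals. Sec-Pro are crypt cells enriched for secretory progenitors, in one group by deletion of Rbpj, the DNA-binding factor of Notch signalling, and in the other by dibenzazepine (DBZ), an inhibitor of Notch. Ent-Pro are crypt cells and ENT are villus cells of Atoh1-/- mice, which have no secretory lineage, so both enterocyte groups carry that deletion and the ISC and Sec-Pro groups are not said to. Crypts were incubated in 5 mM EDTA for 50 min and villi for 25 min, both at 4 °C, and only the ISC are described as sorted. The Cre driver and schedule of the Rbpj deletion, the dose of DBZ and the ages are not given in the sources used here.

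Histone tails carry acetyl and methyl groups that writers add and erasers take off, and readers such as bromodomain proteins bind the acetylated form. Acetylation generally accompanies open, transcribed chromatin, whereas methylation can mark active or silent genes depending on the residue. Remodellers use ATP to slide or evict nucleosomes: most of the Smarc proteins, though not Smarcad1 and Smarcal1, build the BAF and ISWI complexes. Chd4 is the motor of NuRD, which also holds the deacetylases Hdac1 and Hdac2. In the intestine, cells leave the Lgr5 stem cell state in the crypt, divide as progenitors, and stop dividing on reaching the villus.

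Promoter sequences from RefSeq (build GRCm38.p6) were found for 56 of the 67 genes, as 76 windows of the 250 bases before a transcription start. The windows of 4 genes are shown because these had the largest fall or rise between stem cells and villus cells in the data below. Each reads 5′ to 3′ toward the start site, with the GC box GGGCGG, or CCGCCC on the other strand, in capitals. Kat2a lies at chr11:100712468-100712717 (minus strand), Smarcd3 at chr5:24602003-24602252 (minus strand), Kat2b at chr17:53566721-53566970 (plus strand, the first of 2 windows) and Kdm7a at chr6:39206774-39207023 (minus strand).
Kat2a: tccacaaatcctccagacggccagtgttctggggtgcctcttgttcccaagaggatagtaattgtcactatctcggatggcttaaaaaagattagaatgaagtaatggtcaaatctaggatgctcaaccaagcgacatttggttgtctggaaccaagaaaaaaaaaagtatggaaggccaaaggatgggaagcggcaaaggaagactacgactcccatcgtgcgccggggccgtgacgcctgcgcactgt
Smarcd3: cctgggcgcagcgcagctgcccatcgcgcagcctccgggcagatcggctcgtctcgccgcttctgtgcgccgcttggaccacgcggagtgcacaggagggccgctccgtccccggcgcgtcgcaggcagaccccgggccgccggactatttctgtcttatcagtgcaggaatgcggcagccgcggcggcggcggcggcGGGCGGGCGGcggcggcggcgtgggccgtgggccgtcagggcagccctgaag
Kat2b: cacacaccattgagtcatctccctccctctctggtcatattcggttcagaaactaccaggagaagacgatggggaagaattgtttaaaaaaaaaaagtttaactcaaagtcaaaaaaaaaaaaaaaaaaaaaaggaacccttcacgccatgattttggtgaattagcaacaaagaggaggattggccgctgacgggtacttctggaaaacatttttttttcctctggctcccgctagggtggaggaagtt
Kdm7a: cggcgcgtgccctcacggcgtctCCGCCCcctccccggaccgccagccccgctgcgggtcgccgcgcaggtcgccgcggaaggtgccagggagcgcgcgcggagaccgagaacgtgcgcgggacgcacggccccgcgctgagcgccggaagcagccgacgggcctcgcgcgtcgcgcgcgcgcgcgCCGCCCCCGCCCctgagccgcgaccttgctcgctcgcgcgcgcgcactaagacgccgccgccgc
The window of Smarcd3 holds 38 CpG dinucleotides and that of Kdm7a 56, while Kat2a has 11 and Kat2b has 6. A GC box was present in 50 of the 76 windows (65.8%), against 32.7% of the 32851 windows in the table. The CCAAT box (CCAAT) was in 34.2% of the windows of these genes and 33.8% of all windows, and the core letters of an RBPJ site (TGGGAA) were in 18.4% and 21.6%. All motifs were searched on both strands. The median number of CpG dinucleotides was 17.5 for these genes and 6 over all windows. The windows of Kat2a and Smarcd3, which fell together, differ in CpG number and GC boxes.

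The labels were checked on genes outside this set. Lgr5 read 11.36 and 11.06 (log2) in ISC and at most 8.80 elsewhere, and the goblet cell gene Clca1 read 12.83 to 13.52 in Sec-Pro and 3.94 to 4.94 in Ent-Pro and ENT. Rbpj read 6.74 and 6.62 in its deletion group, against 8.26 and 8.31 under DBZ, and Atoh1 read 4.97 to 5.78 in the Atoh1-/- groups. Which part of either gene was deleted is not given in the sources used here, so a probe set outside it would check nothing. ISC replicate 1 stood apart in its Y-linked signal: Eif2s3y read 8.96 there and 3.52 to 3.71 on the other 9 arrays, while Xist was at 11.91 to 14.00 on all 10. Lists of markers for other states moved between the groups. The mean of 13 measured cycling genes was 10.59 and 10.70 in ISC, 9.74 to 10.29 in Sec-Pro, 10.81 and 10.95 in Ent-Pro, and 8.76 on both ENT arrays. The mean of 11 immediate-early genes was 11.20 and 11.27 in ISC and 7.64 to 8.98 elsewhere. Of the 14 leukocyte markers 12 were measured, and their mean was 5.90 and 6.16 in ISC, 7.38 to 9.10 in Sec-Pro, 6.47 and 6.5 in Ent-Pro with 7.78 and 8.16 in ENT; the leukocyte gene Ptprc was at 4.4 and 4.56 in ISC, near background. The mean of 10 stromal markers lay between 5.22 and 6.15 on every array. How far these moving lists account for the changes below was not tested. In bulk RNA, fewer cells of a type and less RNA per cell cannot be told apart.

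Most of the histone-modifying and remodelling genes had their highest level in stem cells, and many had their lowest in villus cells. The highest of the 5 group means was in ISC for 39 of the 67 (58.2%, against 29.8% of all genes), and the lowest in ENT for 33 (49.3%, against 24.3% of all genes). The mean over the 67 genes was 8.89 on both ISC arrays, 8.08 and 8.33 with Rbpj deleted, 8.53 and 8.57 under DBZ, 8.46 and 8.5 in Ent-Pro with 8.04 and 8.07 in ENT. Both ISC arrays lay above the other 8 for 32 genes (47.8%, against 18.0% of all genes), and below them for 4 (Chd1, Kat2b, Kdm7a and Kmt5b; 12.4% of all genes). Both ENT arrays lay below the other 8 for 21 genes (31.3%, against 15.4% of all genes) and above them for 6 (Kat2b, Kat7, Kdm5c, Sirt2, Sirt3 and Sirt7; 18.5% of all genes). By class, these 32 were 11 of 18 remodellers, 4 of 5 readers, 3 of 6 arginine writers, 6 of 13 deacetylases, 5 of 12 lysine writers and 3 of 13 demethylases; differences between classes were not tested. An F test over the 5 groups (limma, Benjamini-Hochberg adjustment over 12393 genes, adjusted p under 0.05) called 56 of the 67, with 66.1% of all genes called. The range of the 5 group means had a median of 1.25 log2 units for the 67 genes and 0.83 for all genes. The 11 that did not pass were Hdac7, Hdac9, Sirt7, Kdm3a, Kdm5a, Kdm5c, Kmt2a, Kmt2d, Kat6b, Smarca1 and Smarcd1. Hdac9 and Smarca1 were near background on all 10 arrays and Kdm5d on 9, where near background means no more than 1 log2 unit above the brightest control probe set for an absent transcript; the other 64 passed the filter on dim genes.

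**Figure D1:**
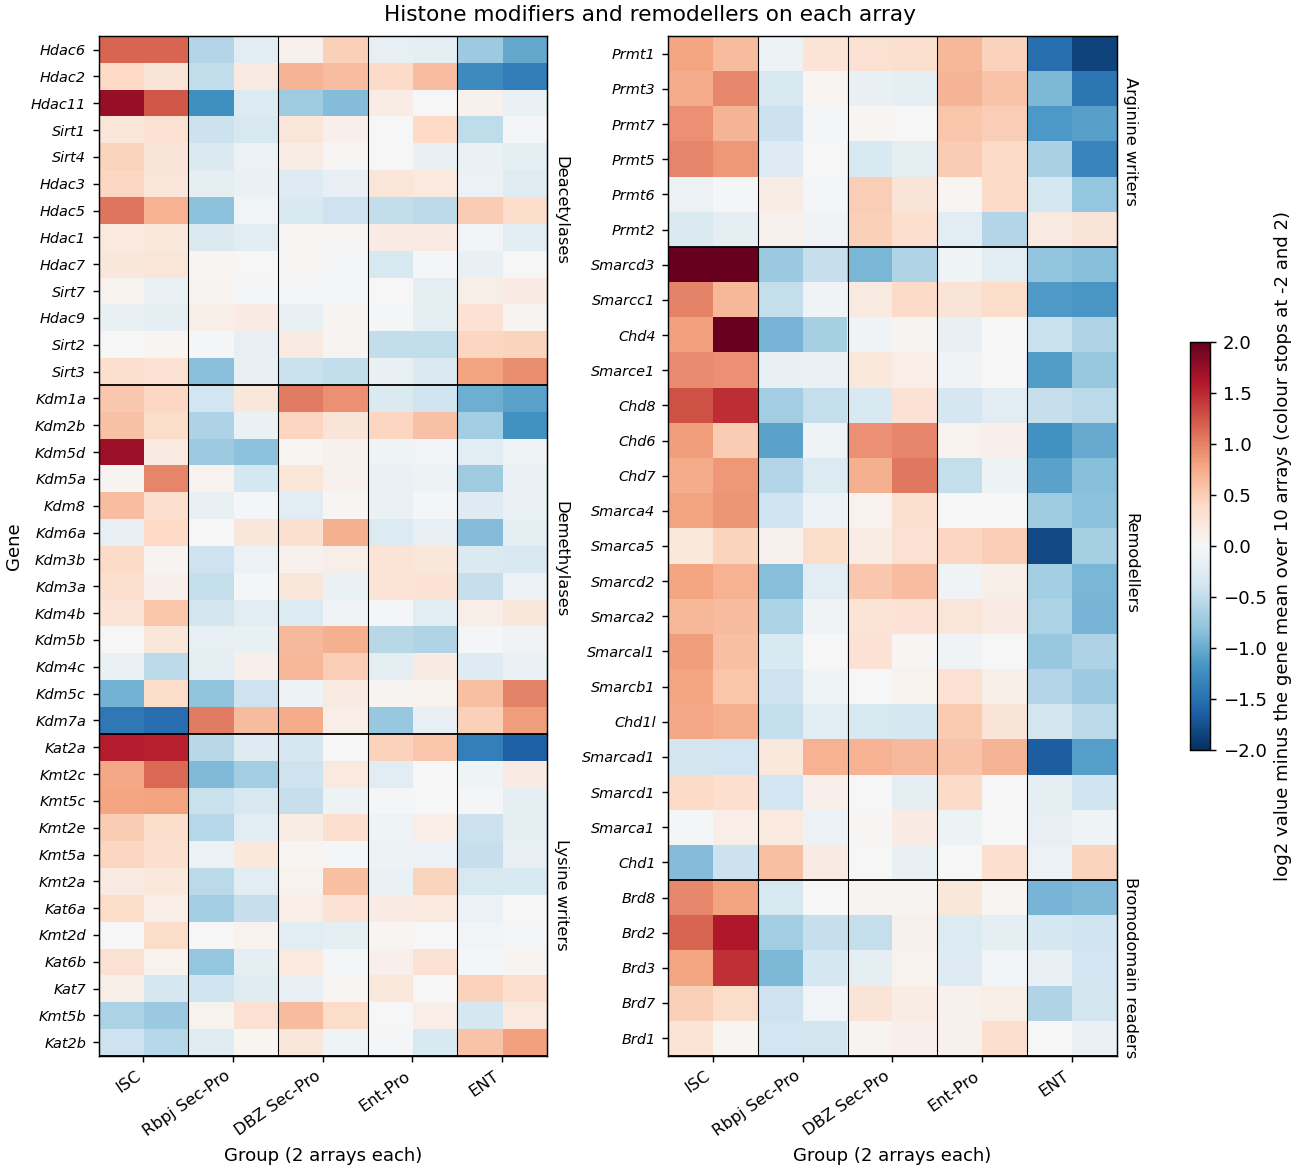
Expression of each of the 67 genes (rows, by class) on each of the 10 arrays (columns, 2 per group), as the log2 value minus the gene's mean over the arrays. The 2 ISC columns are mostly red, the 2 ENT columns mostly blue, and Kdm7a, Kat2b, Chd1 and Kmt5b run the other way in ISC.

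In villus enterocytes, most of these genes were lower than in stem cells. The groups compared also differ in genotype and in sorting. In ENT against ISC, 42 of the 67 were lower and 9 higher (background 26.8% of all genes lower and 22.3% higher), with a median change of -0.74 log2 against -0.01 for all genes. Of the 42, 29 fell at least 2-fold, a size reached by 14.9% of all genes in that direction. All 13 measured cycling genes fell too, 8 of 11 immediate-early genes fell, and 9 of 12 leukocyte markers rose while 1 fell; their part in the counts was not tested. Among writers, Kat2a, the catalytic acetyltransferase of the SAGA and ATAC coactivator complexes, read 10.10 and 10.08 in ISC, 7.98 and 8.28 with Rbpj deleted, 8.19 and 8.55 under DBZ, 8.99 and 9.08 in Ent-Pro with 7.17 and 6.90 in ENT. No 2 of these groups overlapped except the 2 Sec-Pro groups. Kat2a was 8.35-fold lower in ENT than in ISC (log2 -3.06, SE 0.17, adjusted p 3.41e-06). A second Kat2a probe set fell from 7.34 and 7.24 to 5.56 and 5.63, while the other stayed between 6.48 and 7.17 on all 10 arrays. Kat2b, its close relative and alternative subunit of the same complexes, ran the other way, with 9.41 and 9.25 in ISC, 9.58 and 9.87 with Rbpj deleted, 10.06 and 9.74 under DBZ, 9.79 and 9.52 in Ent-Pro with 10.40 and 10.64 in ENT. The ENT arrays were the highest and the ISC arrays the lowest, and the 6 crypt progenitor arrays overlapped one another. Kat2b was 2.28-fold higher in ENT than in ISC (SE of log2 0.17, adjusted p 0.000415).

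Of the 12 lysine writers, 5 fell (41.7%) and 3 rose (25.0%) in ENT against ISC, where 26.8% of all genes fell and 22.3% rose. The share that rose was thus near that of all genes. Besides Kat2a, the falls were led by Kmt2c, a methyltransferase of enhancers (log2 -0.92), and Kmt5c, which methylates histone H4 in heterochromatin (-0.91). Kmt5b, its paralogue, was higher by 0.62 log2, and Kat7, the acetyltransferase that helps license replication origins, by 0.51. Another probe set of both genes moved the opposite way, and both calls were lost in some leave-one-out fits. Of the 6 arginine writers, 4 fell, with a median of -1.91 log2. Prmt1, which makes most asymmetric dimethylarginine in cells, read 11.42 and 11.27 in ISC, 10.53 and 10.91 with Rbpj deleted, 10.95 and 10.97 under DBZ, 11.31 and 11.10 in Ent-Pro with 9.14 and 8.79 in ENT. All 8 crypt and stem cell arrays were above both ENT arrays by over 1 log2 unit. The fall was 5.22-fold (log2 -2.38, SE 0.17, adjusted p 9.60e-06). Prmt3, a cytoplasmic enzyme whose best known substrate is a ribosomal protein, fell 4.07-fold, and Prmt7, which makes monomethylarginine, 3.77-fold. Prmt5, the main symmetric dimethylarginine enzyme, read 9.66 and 9.57 in ISC and 8.05 and 7.37 in ENT, without overlap. Prmt2 was the exception, from 7.16 and 7.27 in ISC to 7.63 and 7.71 in ENT (log2 0.46, adjusted p 0.0272), a call lost on leaving out any of these 4 arrays (adjusted p 0.0602 to 0.123).

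Of 18 remodellers, 16 fell (88.9%, against 26.8% of all genes) and 1 rose (5.56%, against 22.3%) in ENT against ISC, with a median of -1.55 log2. Smarcd3, a BAF subunit known from heart and muscle development, read 7.92 and 8.29 in ISC, 5.04 and 5.31 with Rbpj deleted, 4.86 and 5.17 under DBZ, 5.68 and 5.56 in Ent-Pro with 4.99 and 4.92 in ENT. It was higher in ISC than on any other array by over 2 log2 units and near background on both ENT arrays, so its fall is given as a bound of at least 8.41-fold (adjusted p 3.41e-06). Smarcc1, a core scaffold of BAF, fell 3.91-fold from 11.20 and 10.87 to 9.09 and 9.05, with every crypt array in between. Chd4 was at 10.61 and 11.77 in ISC, 8.86 to 9.85 in the 6 crypt progenitor arrays, and 9.35 and 9.19 in ENT. Its fall was 3.79-fold (adjusted p 0.000734), and the spread between its ISC arrays was the widest among the remodellers. The same direction held for Smarca4 (11.32 and 11.40 to 9.80 and 9.69) and Smarca2 (8.82 and 8.80 to 7.53 and 7.23), the alternative motors of BAF. Chd1, a remodeller tied to transcribed chromatin, was the one higher call (log2 0.81, adjusted p 0.0211). Another Chd1 probe set went the other way, from 8.01 and 8.04 in ISC to 6.68 and 7.53 in ENT.

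Among the erasers, 13 of 26 fell (50.0%, against 26.8% of all genes) and 4 rose (15.4%, against 22.3%) in ENT against ISC. Hdac6, a largely cytoplasmic deacetylase of tubulin, read 8.85 and 8.86 in ISC, 7.11 and 7.48 with Rbpj deleted, 7.78 and 8.17 under DBZ, 7.53 and 7.51 in Ent-Pro with 6.96 and 6.67 in ENT. It was 4.12-fold lower in ENT than in ISC (SE of log2 0.18, adjusted p 2.50e-05). Hdac2, a nuclear deacetylase of NuRD and Sin3 complexes, was at 9.64 and 9.51 in ISC and 7.98 and 7.86 in ENT, a 3.14-fold fall. Its paralogue Hdac1 moved less, from 10.10 and 10.12 to 9.85 and 9.69. Hdac11 fell 2.86-fold, from 9.96 and 9.47 to 8.30 and 8.10. Sirt3, the main mitochondrial deacetylase, read 8.49 and 8.47 in ISC, 7.33 and 8.01 with Rbpj deleted, 7.72 and 7.67 under DBZ, 8.01 and 7.87 in Ent-Pro with 8.96 and 9.09 in ENT. The villus arrays were thus highest and the ISC arrays next, with no overlap between those and the crypt progenitors; the ENT against ISC call (log2 0.55, adjusted p 0.0483) was at the threshold. It was lost on leaving out any ISC, DBZ Sec-Pro, Ent-Pro or ENT array. Sirt2, a mainly cytoplasmic deacetylase, was 1.33-fold higher in ENT than in ISC (adjusted p 0.0137). The split of the deacetylases depended on the scaling: 2 higher and 7 lower as deposited, 4 and 3 with arrays centred on their medians, and 2 and 5 after cyclic loess. The counts for all erasers became 6 higher and 6 lower with arrays centred, and 4 and 10 after cyclic loess. Calls over all genes moved as well. Of 12393 genes, 2769 were higher and 3325 lower as deposited. These counts were 4388 and 2593 with arrays centred, and 3083 and 3045 after cyclic loess.

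Of the 13 demethylases, 6 fell (46.2%, against 26.8% of all genes) and 2 rose (15.4%, against 22.3%) in ENT against ISC. The counts were 3 and 2 with arrays centred and 5 and 2 after cyclic loess. Calls over all genes moved with the scaling too, as given above. Kdm1a, the flavin-dependent demethylase of the CoREST repressor complex, fell 2.84-fold, from 10.99 and 10.85 to 9.46 and 9.37. Kdm2b, which recruits a Polycomb complex to CpG islands, fell 2.69-fold. Kdm7a, which removes repressive methyl groups, read 4.72 and 4.62 in ISC, 7.19 and 6.79 with Rbpj deleted, 6.90 and 6.29 under DBZ, 5.39 and 5.99 in Ent-Pro with 6.62 and 6.98 in ENT. It was near background on both ISC arrays and above them on all other arrays. The rise was at least 3.5-fold (adjusted p 0.000159). The X-linked Kdm5c was called higher in ENT (log2 1.09, adjusted p 0.0337), but its ISC arrays were at 5.71 and 7.03 and the call was lost without ISC replicate 1 or either ENT array. Its Y-linked homologue Kdm5d was at 6.00 in ISC replicate 1, 4.47 in ISC replicate 2 and 3.47 to 4.38 elsewhere. Kdm5d is counted among the genes lower than ISC. This call was lost without ISC replicate 1, the array with Y-linked signal (log2 -0.34, adjusted p 0.0914), and without any DBZ Sec-Pro, Ent-Pro or ENT array. Of the 5 readers, 4 fell. Brd2, a BET protein that binds acetylated histones at active genes, read 11.82 and 12.26 in ISC and 9.96 to 10.75 on the other 8 arrays, and was 3.38-fold lower in ENT. Brd8, a subunit of the TIP60 complex, fell 3.46-fold and Brd3, another BET protein, 2.64-fold. Calls for Chd1, Sirt2 and Kmt2c were lost on leaving out 1 or more of the ISC and ENT arrays. The number called higher in ENT was 3 without ISC replicate 1, 5 without ISC replicate 2, 5 without ENT replicate 1 and 2 without ENT replicate 2; the number lower ranged from 37 to 45 over all single arrays left out.

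**Figure D2:**
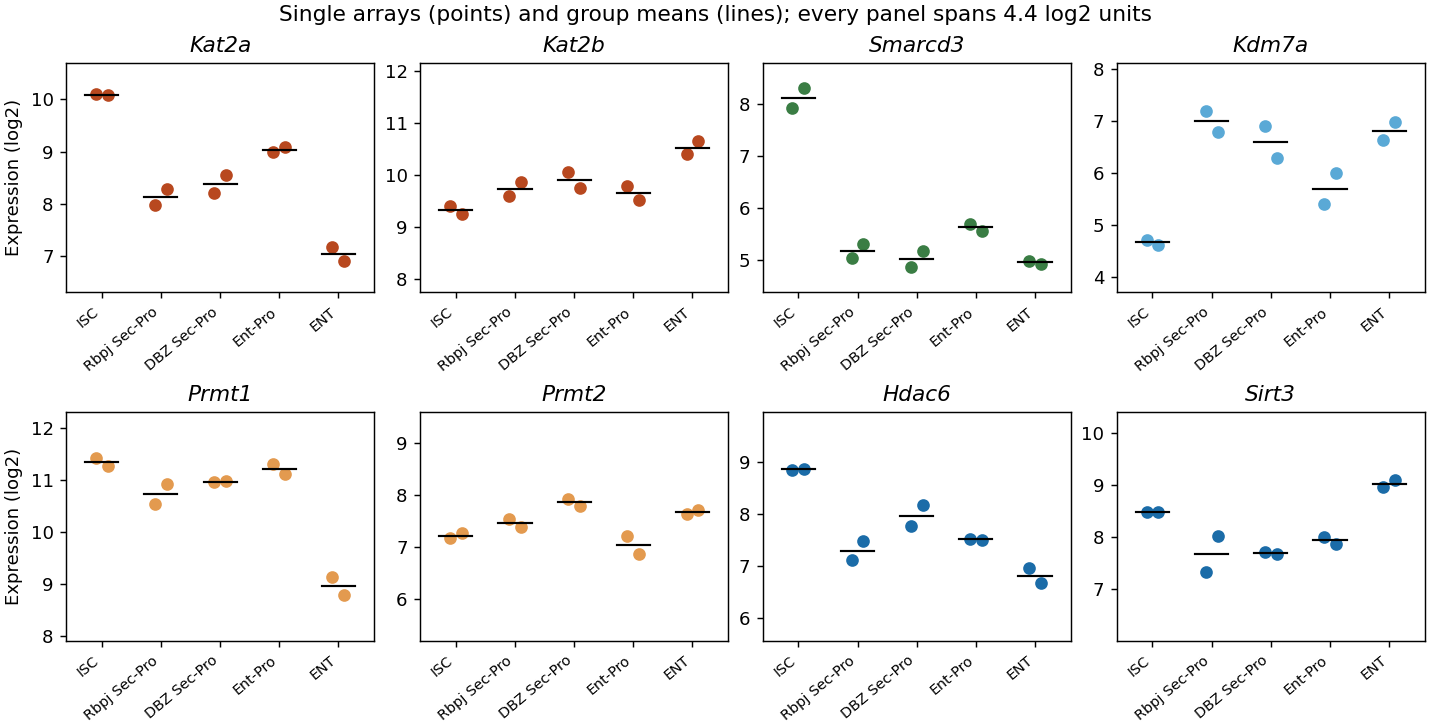
Log2 expression of 8 genes on single arrays (points) with the mean of each group (lines); every panel spans the same number of log2 units. Kat2a, Prmt1 and Hdac6 are lowest in ENT, Smarcd3 is high in ISC alone, and Kat2b and Sirt3 are highest in ENT.

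The step from crypt to villus within the enterocyte lineage was compared in Atoh1-/- mice on both sides. In ENT against Ent-Pro, 28 of the 67 genes were lower and 7 higher (background 20.2% and 18.5%), with a median of -0.31 log2 against 0.02 for all genes. Arginine writers and remodellers made up 18 of the 28. Of 6 arginine writers 5 fell: Prmt1 by 2.24 log2 (SE 0.17, adjusted p 5.19e-05), Prmt3 by 1.80 and Prmt7 by 1.64 lead them, and Prmt5 and Prmt6 also passed. A second, dim Prmt7 probe set moved the other way. Of 18 remodellers 13 fell and none rose. Smarcad1, a remodeller that keeps heterochromatin through replication, read 8.92 and 9.03 in Ent-Pro, 6.70 and 7.26 in ENT, 8.0 and 7.98 in ISC and 8.56 to 9.05 in Sec-Pro. Its progenitor arrays were therefore above ISC as well as above ENT; the villus step was 3.98-fold (adjusted p 0.000150). A second probe set of Smarcad1 lay between 7.22 and 7.94 on all arrays and did not follow this order. Smarca5, the ISWI motor that spaces nucleosomes, read 11.69 and 11.75 in Ent-Pro and 9.44 and 10.58 in ENT. Its 8 other arrays spanned 11.33 to 11.75, so the fall of 1.71 log2 (SE 0.31) was confined to the 2 ENT arrays, which were unequal.

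At the same step 7 of 26 erasers were lower (26.9%) and 5 higher (19.2%), near the background of 20.2% and 18.5%. Of the 12 lysine writers 1 was lower and 1 higher, below it (8.33% each), so genes of both classes are given as single values. Hdac2 fell 3.54-fold, from 9.63 and 9.86 to 7.98 and 7.86 (adjusted p 0.000207). Hdac6 fell by 0.71 log2 and Hdac3, the deacetylase of the NCoR and SMRT corepressors, by 0.40. The deacetylases that rose were Sirt3, by 1.09 log2 (SE 0.20, adjusted p 0.00249), Hdac5, a signal-responsive class IIa enzyme, by 0.94, and Sirt2 by 0.93. With arrays centred on their medians, 5 deacetylases were higher and 2 lower, and after cyclic loess 4 and 2. Over all genes, 2291 were higher and 2501 lower as deposited. These counts were 2974 and 2128 with arrays centred, and 2497 and 2338 after cyclic loess. Among demethylases, Kdm2b fell 2.75-fold, Kdm1a 1.61-fold and Kdm3a, a demethylase of repressive marks, 1.48-fold, while Kdm7a rose 2.16-fold and Kdm5b, which removes methyl groups from active promoters, 1.44-fold. Kat2a fell 4.01-fold and Kat2b rose 1.82-fold, and no other lysine writer passed. The readers Brd8 (-1.03 log2) and Brd7, a PBAF subunit (-0.58), fell. All 13 cycling genes fell at this step, by a median of 2.03 log2, and 6 of 12 leukocyte markers and 7 of 11 immediate-early genes rose, with 2 of the latter lower; their part was not tested. Without Ent-Pro replicate 2, 18 were lower and 4 higher. Calls for Hdac3 and Kdm1a were lost on leaving out any of the 4 arrays compared, and those for Hdac5, Hdac6, Brd7, Kdm3a, Kdm7a, Kdm5b, Prmt2 and Prmt6 on leaving out 1 or more.

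Between stem cells and crypt enterocyte progenitors, which differ in genotype and in sorting, more of these genes were lower than higher. In Ent-Pro against ISC, 25 genes were lower and 4 higher (background 13.5% and 12.1%), with a median of -0.41 log2 against -0.02 for all genes. No arginine writer passed: Prmt5 was nearest, at 9.66 and 9.57 in ISC and 9.20 and 9.08 in Ent-Pro (adjusted p 0.133). Of 18 remodellers 8 fell and 2 rose. Smarcd3 fell 5.61-fold (adjusted p 6.96e-05), Chd8, a remodeller that binds beta-catenin, 3.12-fold from 10.63 and 10.83 to 9.03 and 9.14, and Chd4 2.77-fold. Of 13 deacetylases 6 fell, or 3 with arrays centred and 4 after cyclic loess, led by Hdac11 (-1.42 log2), Hdac5 (-1.39) and Hdac6 (-1.34). Over all genes, the lower count was 1667 as deposited, 1277 with arrays centred and 1522 after cyclic loess. Hdac5 was at 8.31 and 7.94 in ISC, 6.75 and 6.73 in Ent-Pro and 7.75 and 7.59 in ENT, so its crypt progenitor level was below both ends. Readers were lower for 3 of 5, with Brd2 at -1.62 log2 and Brd3 at -1.28. Lysine writers were lower for 4 of 12, led by Kmt2c (-1.06), Kat2a (-1.06) and Kmt5c (-0.82), and demethylases for 4 of 13, led by Kdm1a (-0.82), Kdm5b (-0.69) and Kdm8 (-0.57). Another Kdm5b probe set had the opposite sign. The 4 higher genes were Kdm7a (at least 1.62-fold), Smarcad1 (1.98-fold), Chd1 (1.76-fold) and Kmt5b (1.69-fold); for the latter 3 another probe set had the opposite sign. Here 2 cycling genes rose and none fell, while all 11 immediate-early genes fell, by a median of 3.94 log2, and 1 of 12 leukocyte markers rose and 1 fell. Calls for Chd1, Chd4, Hdac11, Kdm1a, Kdm7a, Kdm8, Kmt2c, Kmt5b and Smarcad1 were lost on leaving out 1 or more arrays. The count of lower genes was 14 without Ent-Pro replicate 1. The count of higher genes was 1 without either ISC array, 2 without Ent-Pro replicate 1, and 0 once replicate 2 of that group was left out.

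Secretory progenitors also had lower levels than stem cells. In Sec-Pro against ISC, with the Rbpj and DBZ groups weighted equally, 36 genes were lower and 7 higher (background 27.2% and 18.0%), with a median of -0.49 log2 against -0.11 for all genes. This and the other comparisons with ISC share the same 2 ISC arrays. Sec-Pro also differ from ISC in sorting and in the Rbpj deletion or DBZ. Smarcd3 was 8.07-fold lower, from 8.11 ± 0.26 (SD, n = 2) to 5.10 ± 0.19 (SD, n = 4; adjusted p 7.26e-06). Its Sec-Pro arrays, at 4.86 to 5.31, were close to the near-background limits, which ranged from 4.70 to 5.05 over the arrays. The size of this fold therefore rests on dim values. Of 18 remodellers 13 fell and 2 rose, including Chd4 (-1.80 log2) and Chd8 (-1.67). Of 13 deacetylases 7 fell and none rose. Hdac11, the sole class IV deacetylase, read 9.96 and 9.47 in ISC, 6.99 and 7.94 with Rbpj deleted, 7.52 and 7.36 under DBZ and 8.37 and 8.21 in Ent-Pro. It was 4.8-fold lower in Sec-Pro than in ISC (adjusted p 0.000141). Hdac5 (-1.28 log2) and Hdac6 (-1.22) were the next. Arginine writers were lower for 4 of 6, led by Prmt5 (-1.11), Prmt3 (-1.01) and Prmt7 (-0.91), with Prmt2 higher by 0.45. Lysine writers were lower for 5 of 12: Kat2a by 1.84 log2, Kmt2c by 1.41 and Kmt5c by 1.13 were the largest. Readers were lower for 4 of 5, led by Brd2 (-1.76), Brd3 (-1.47) and Brd8 (-0.94). Demethylases were lower for 3 of 13 (23.1%) and higher for 2 (15.4%), both under the background. The lower calls were Kdm4b (-0.64), Kdm8 (-0.58) and Kdm5d. Kdm5d was near background on every array except ISC replicate 1, the array with Y-linked signal. Higher calls in this class were Kdm7a (at least 3.47-fold) and Kdm4c. The remaining higher calls were Kmt5b (2.04-fold), Smarcad1 (1.91-fold), Chd1 (1.74-fold) and Kat2b (1.40-fold). The dimmest probe set of a gene had the opposite sign for Chd1 (-0.76 log2), Kmt5b (-0.43), Brd8 (0.58), Brd3 (0.062) and Prmt3 (0.051). In the same contrast 9 of 13 cycling genes and all 11 immediate-early genes fell and 9 of 12 leukocyte markers rose; their part was not tested. Taken apart, the Rbpj group had 42 lower and 4 higher against ISC (background 29.4% and 17.7%), and the DBZ group 26 and 7 (20.3% and 15.9%). Without either ISC array, 4 rather than 7 genes were higher, and calls for Chd1, Kat2b, Kdm8 and Prmt2 were lost on leaving out at least 1 of them. The Kdm4c call was lost when Rbpj and DBZ arrays were pooled into 1 group of 4, and without ISC replicate 2.

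**Figure D3:**
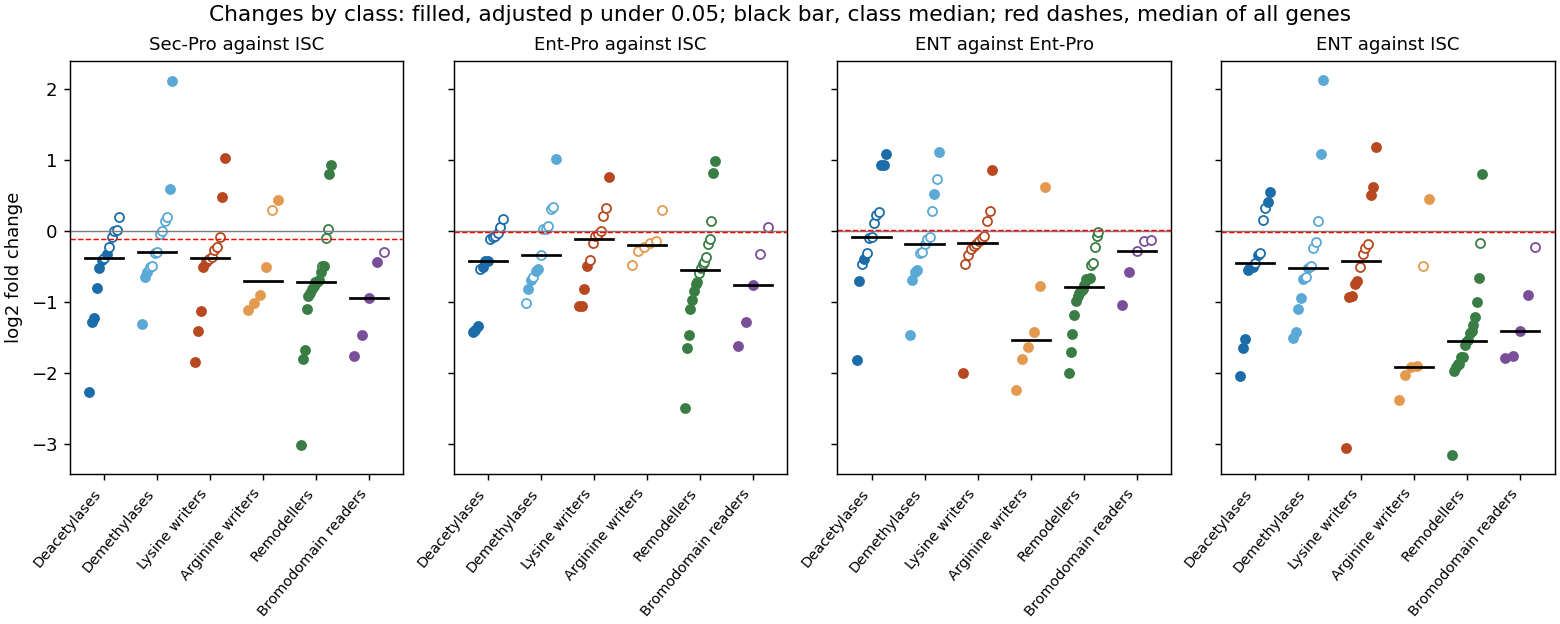
Log2 fold change of each gene in 4 comparisons, by class; filled points passed the limma test (adjusted p under 0.05), black bars are class medians and red dashes the median of all genes. Arginine writers lie near 0 in Ent-Pro against ISC and near -1.5 in ENT against Ent-Pro. The median of every class lies below the dashes in all 4 panels.

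The 2 progenitor types differed in few of these genes. In Sec-Pro against Ent-Pro, 6 were higher and 8 lower, or 8.96% and 11.9% of the 67, close to the background of 9.27% and 14.7%. The genes that passed are given as single values. Kdm5b was highest in DBZ Sec-Pro, at 9.50 and 9.56, with 8.70 on both Rbpj Sec-Pro arrays and 8.29 and 8.26 in Ent-Pro, a 1.79-fold higher mean in Sec-Pro (adjusted p 0.00104). With its dimmest probe set the Kdm5b call was lost. Kdm7a was 2.14-fold higher, Prmt2 1.54-fold and Sirt2 1.42-fold, and the other 2 were Kdm1a and Chd7. Hdac11 (-0.84 log2) and Hdac3 (-0.41) were lower, as were Kat2a (-0.79), Prmt3 (-0.78), Prmt5 (-0.63), Prmt7 (-0.63), Smarcd3 (-0.53) and Chd1l, a remodeller activated at DNA damage (-0.74, SE 0.12, adjusted p 0.00440). No reader passed; Brd1 was nearest and its arrays overlapped (-0.36, adjusted p 0.0565). All 13 cycling genes were lower and 7 of 12 leukocyte markers higher in Sec-Pro. The split was 5 higher and 15 lower with arrays centred on their medians and 6 and 5 after cyclic loess. Over all genes, 1149 were higher and 1826 lower as deposited. These counts were 1001 and 2504 with arrays centred, and 1434 and 1206 after cyclic loess. Only Kdm5b kept its call in every fit that left out 1 array, and it was lost with the 4 Sec-Pro arrays as 1 group. The split was 2 and 1 without either Ent-Pro array, and the lower count was 18 without Rbpj Sec-Pro replicate 2 and 4 without DBZ Sec-Pro replicate 1.

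The 2 ways of blocking Notch did not give the same levels. In DBZ against Rbpj Sec-Pro, 10 genes were higher and 0 lower by limma (background 9.34% and 7.08%); at an unadjusted p under 0.05 the counts were 26 and 0 (background 19.6% and 13.8%). The change was above 0 for 54 of the 67 (80.6%, against 56.9% of all genes), with a median of 0.30 log2 against 0.06. The remodellers Chd6 and Chd7, the latter a regulator of neural crest development, had the largest differences. Chd6 read 6.46 and 7.44 with Rbpj deleted, 8.44 and 8.5 under DBZ, 8.37 and 8.03 in ISC and 7.59 and 7.62 in Ent-Pro, so DBZ arrays were at or above the ISC level and Rbpj arrays below Ent-Pro. Chd6 differed by 1.52 log2 (SE 0.27, adjusted p 0.0101). Chd7 read 7.24 and 7.55 against 8.52 and 8.87, with ISC at 8.56 and 8.68, a difference of 1.31 (SE 0.19, adjusted p 0.00531). Smarcd2, a BAF subunit, was at 11.25 and 11.89 against 12.64 and 12.72 (1.11, adjusted p 0.0104). Kdm1a was higher under DBZ than on any other array, at 11.47 and 11.35, and differed by 1.06 (adjusted p 0.00967). Kdm5b (0.83), Hdac2 (0.81), the acetyltransferase Kat6a (0.79), Kdm2b (0.72), Hdac6 (0.68) and the MLL-family protein Kmt2e (0.63) made up the rest. No arginine writer and no reader passed; the nearest were Prmt2 (0.40, adjusted p 0.0932) and Brd1, a scaffold of acetyltransferase complexes (0.46, adjusted p 0.0526).

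The Rbpj arrays differed from each other, with replicate 1 below replicate 2 in the mean over the 67 genes (8.08 and 8.33). Leukocyte markers averaged 9.10 and 7.38 on these 2 arrays and 7.88 and 8.76 on the DBZ arrays, and none of the 12 passed between the groups; of 13 cycling genes 1 was lower under DBZ. Of 7 measured enterocyte markers 3 were lower under DBZ (median -0.60 log2), and of 11 secretory markers 4 were higher and 1 lower (median 0.73); their part in the counts was not tested. The number of genes higher under DBZ was 6 without Rbpj Sec-Pro replicate 1, 17 without Rbpj Sec-Pro replicate 2, 2 without DBZ Sec-Pro replicate 2 (Chd7 and Kdm5b) and 6 without either Ent-Pro array. It was 0 when only the 4 arrays compared were fitted. The calls for Hdac2, Hdac6, Kdm2b and Kmt2e were lost in most leave-one-out fits, including those without an ISC array.

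**Figure D4:**
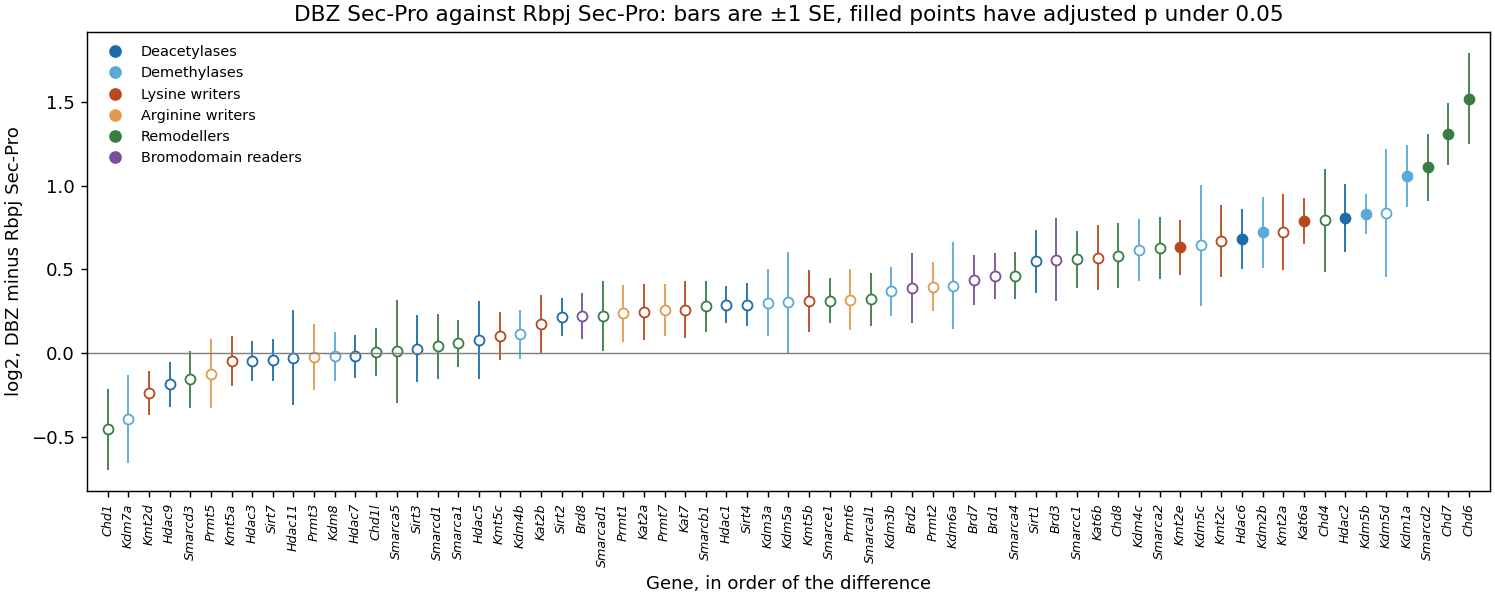
Difference between DBZ and Rbpj Sec-Pro (log2, 2 arrays each) for the 67 genes in order of size, with bars of 1 SE; colours give the class and filled points passed the limma test (adjusted p under 0.05). All 10 filled points lie above 0, from Kmt2e at 0.63 to Chd6 at 1.52.

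Paralogues that can replace one another in a complex were set side by side, as changes rather than levels, since levels of different probe sets are not comparable. Kat2a and Kat2b had opposite changes in ENT against both ISC and Ent-Pro. Smarca4 and Smarca2 both fell in ENT, although another Smarca2 probe set had the opposite sign against Ent-Pro. Of the Smarcd subunits, Smarcd3 was higher on both ISC arrays than on any other array. Smarcd2 ranged over 1.54 log2 units with its top in ISC, and Smarcd1 did not pass the F test (adjusted p 0.0683). Smarcd1 was nonetheless called lower than ISC in ENT (-0.66) and in Sec-Pro (-0.49), calls that were lost in some settings. Hdac2 had a range of 1.97 and Hdac1 of 0.46. Kat6a passed the F test and Kat6b, with a similar role, had an adjusted p of 0.0516. In the Kdm5 family, Kdm5a was called lower in ENT against ISC (-0.94). The call was lost with arrays centred on their medians, after cyclic loess and with only the arrays compared. It was also lost without ENT replicate 1 or ISC replicate 2, and the ISC arrays were unequal, at 9.13 and 10.05. By the F test Kdm5b passed, Kdm5a (adjusted p 0.122) and Kdm5c (0.0547) did not, and Kdm5d passed (adjusted p 0.0318), but not on leaving out any of the 8 arrays other than ISC. X-linked Kdm6a, a demethylase of the Polycomb mark, passed with an adjusted p of 0.0433, with 9.68 and 10.08 in DBZ Sec-Pro and 8.5 and 9.17 in ENT. The Kdm6a call was lost with arrays centred, after cyclic loess and on leaving out 1 or more single arrays. Of the sirtuins, Sirt3 had a range of 1.36 and Sirt2 of 0.93. Sirt1, a nuclear deacetylase, and Sirt4, a mitochondrial one, passed with ranges of 0.65 and 0.55. Neither passed with arrays centred on their medians or after cyclic loess, and both calls were lost on leaving out 1 or more single arrays. Sirt7, a nucleolar one, stayed within 9.51 to 9.86 on all arrays (adjusted p 0.512).

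Other chromatin genes, called partners here, were listed by known complex or by enzyme activity, and not by symbol. Of 97 listed, 76 were measured. Besides subunits of complexes they include writers, erasers and remodellers under other names. The counts below are therefore not for subunits alone. In ENT against ISC, 46 were lower (60.5%, against 26.8% of all genes) and 6 higher, and in ENT against Ent-Pro 36 (47.4%, against 20.2%) and 5. In Sec-Pro against ISC the counts were 37 (48.7%, against 27.2%) and 7, and between the progenitors 24 lower (31.6%, against 14.7%) and 2 higher. In Ent-Pro against ISC 12 were lower (15.8%) and 7 higher (9.21%), near the background of 13.5% and 12.1%. In DBZ against Rbpj Sec-Pro 0 were lower and 3 higher (3.95%), below the background of 9.34%. All 7 measured partners of the COMPASS methyltransferases fell in ENT against ISC, and 7 of 13 BAF and PBAF subunits did, with none higher. Hells, a remodeller needed for DNA methylation, read 10.46 on both ISC arrays, 9.23 to 10.13 in Sec-Pro, 11.01 and 11.14 in Ent-Pro with 7.10 and 7.97 in ENT. It was thus highest in Ent-Pro and 11.6-fold lower in ENT than there (adjusted p 8.25e-05). Psip1, a reader that tethers methyltransferases to transcribed genes, fell 7.63-fold in ENT against ISC, and Atrx, a remodeller of repeats, 6.42-fold. Smyd2, a lysine methyltransferase, was at 11.56 and 11.59 in ISC and 9.37 to 9.87 in Sec-Pro. Ino80c, a subunit of the INO80 remodeller, went against the trend, with 7.5 and 7.29 in ISC, 8.26 to 8.82 in Sec-Pro, 8.38 and 8.52 in Ent-Pro with 9.11 and 9.28 in ENT. It was 3.48-fold higher in ENT than in ISC (adjusted p 6.92e-05). Sin3b, a corepressor scaffold (1.83-fold), and the X-linked demethylase Phf8 (1.64-fold) were also higher there. Trrap, the large scaffold shared by acetyltransferase complexes, was lower than ISC by 1.91 log2 in Sec-Pro and 1.36 in Ent-Pro. Ehmt2, the G9a methyltransferase (-1.29), and Gatad2b of NuRD (-1.23) were lower in Ent-Pro than in ISC, and Mta1 of NuRD (-1.89) in Sec-Pro, while Tbl1xr1 of the NCoR complex was higher in Ent-Pro (0.95). Between the progenitors, Bcl7c of BAF was lower by 1.31 log2 in Sec-Pro and Rcor2 of CoREST higher by 0.61. Under DBZ, Actl6a (0.96) and Arid2 (0.75) of BAF complexes and Phf8 (0.65) were higher than with Rbpj deleted. Of the 10 fits that left out 1 array, the Phf8 call was lost in 9, the Arid2 call in 7 and the Actl6a call in 3, and none of them passed with only the arrays compared.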

How the data were processed

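Values of 22690 probe sets on 10 arrays were deposited on a log2 scale; the submitters' processing notes name RMA and MAS5 and give neither a role. Array medians lay between 6.83 and 6.98, and the values were used as deposited. Of the probe sets, 20393 had 1 gene symbol in the platform table, 691 several and 1606 none; controls were left out, and a gene with several was represented by its probe set of highest mean. Group means of all 10 arrays were fitted with limma 3.58.1 (R 4.3.3; lmFit, eBayes, tested on simulated data), with Benjamini-Hochberg adjustment over 12393 genes and a threshold of 0.05. Sec-Pro is the mean of its 2 group means. Genes near background over a whole group have bounds ("at least") in place of folds. Genes and lists were chosen with earlier results of these data known. Named genes are, per comparison and class, up to 3 called in each direction without overlapping arrays (or the smallest p), the widest ranges, paralogues, and up to 3 partners; others named for counts or order were chosen after their values were seen. Marker lists covered stem, secretory, enterocyte, leukocyte, stromal, cycling and immediate-early genes. The first 3 checked the labels: in ENT against ISC 7 of 7 stem cell genes and 11 of 11 secretory genes were lower and 7 of 7 enterocyte genes higher. Alternatives changed the probe set, scaling, dim-gene filter, prior variance, block and arrays. Separate animals are not stated in the labels; p-values therefore reflect spread between samples, which may be technical. Precision is limited by 2 arrays per group.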

Additional observations from a re-analysis of the deposited data

Results flagged for a closer look

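The 2 Sec-Pro groups differ in how Notch was blocked. By a test of the difference itself (limma, adjusted p under 0.05), 10 of the 67 genes differed between them, all higher under DBZ. That is 14.9% of the 67, against 9.34% of all genes higher and 7.08% lower. In either direction 16.4% of all genes differed. The share of the 67 that differed at all was therefore not above that of all genes. The differences in log2 were 1.52 for Chd6, 1.31 for Chd7, 1.11 for Smarcd2, 1.06 for Kdm1a, 0.83 for Kdm5b, 0.805 for Hdac2, 0.79 for Kat6a, 0.721 for Kdm2b, 0.679 for Hdac6 and 0.631 for Kmt2e. Both DBZ arrays were above both Rbpj arrays for each of these genes. With only the arrays compared in the fit, 0 of these 10 genes passed. Only 2 of the 10, Chd7 and Kdm5b, kept their call in every fit that left out 1 array.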

How the results depend on the processing

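Of 181 results for single genes, 80 kept their call and direction in every setting tried. Most reversals came from using the dimmest probe set of a gene. Under that choice the log2 change against ISC became, in Sec-Pro, 0.062 for Brd3, 0.577 for Brd8, -0.759 for Chd1, -0.43 for Kmt5b and 0.051 for Prmt3. In Ent-Pro against ISC it became 0.066 for Brd3, 0.243 for Brd8, -0.376 for Chd1, 0.193 for Kdm5b, -0.18 for Kmt5b, -0.016 for Smarcad1 and -0.191 for Tbl1xr1. In ENT against ISC it became -0.916 for Chd1 and -0.404 for Kat7, in ENT against Ent-Pro 0.184 for Prmt7 and 0.17 for Smarcad1, and in Sec-Pro against Ent-Pro -0.017 for Sin3b. With the mean of the probe sets, Chd1 became -0.063 in ENT against ISC and Kmt5b -0.0896 in Ent-Pro against ISC.

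In Sec-Pro against Ent-Pro 3 were higher and 5 lower with the 4 Sec-Pro arrays as 1 group, and 13, 15 and 5 lower with the mean of probe sets, arrays centred and cyclic loess. The lower count over all genes moved with the scaling too. With the dimmest probe set, 1 gene was higher in Ent-Pro against ISC, 4 in ENT against ISC and 1 lower in DBZ against Rbpj Sec-Pro; with the mean of probe sets 5 were higher in ENT against ISC. With only the arrays compared, DBZ against Rbpj Sec-Pro had 0 higher. Leaving out each array gave these ranges of higher and lower counts: 2 to 6 and 1 to 18 in Sec-Pro against Ent-Pro, 4 to 7 and 28 to 41 in Sec-Pro against ISC, 0 to 4 and 14 to 30 in Ent-Pro against ISC, 4 to 8 and 18 to 29 in ENT against Ent-Pro, 2 to 9 and 37 to 45 in ENT against ISC, and 2 to 17 and 0 to 0 in DBZ against Rbpj Sec-Pro; 51 to 56 genes passed the F test. Centring the arrays shifted the median of all genes by 0.247 in ENT against ISC, 0.128 in ENT against Ent-Pro and 0.119 in Ent-Pro against ISC, and cyclic loess by 0.129 in Sec-Pro against ISC. The causes of these changes were not tested.

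With the replicate number as a block, 44 genes were lower and 8 higher in ENT against ISC, no count moved by over 1.5 times, and 176 of the 181 gene results kept their side of the threshold. The block ended the calls for Kdm2b (DBZ against Rbpj Sec-Pro), Kdm3a (ENT against Ent-Pro), Sirt3 (ENT against ISC) and Hdac11 (Sec-Pro against Ent-Pro). Deviations of same-numbered arrays correlated between -0.19 and 0.17. With 2 arrays per group these values cannot decide whether the numbers pair the samples, and the labels do not state a pairing. Signal over background limits Hdac9, Smarca1 and Kdm5d, and Smarcd3 and Kdm7a in 1 group each. Smarcd3 was also dim in both Sec-Pro groups, though above the limit.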
